A study of Sus scrofa domesticus with 150 samples.

Results

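The samples compared here are the wound edge and the wound center on day 11 after wounding, 6 of each and 12 of the 150 samples in all. They were chosen by their labels: day 11 and location. Full-thickness circular wounds were excised on female domestic pigs of a Yorkshire mix. Pieces of the edge and of the center were later taken for poly-A RNA sequencing. On day 11 these came from wounds C and J of 3 animals, so that each of the 6 wounds gave 1 edge and 1 center sample. The wounds are numbered 1 and 2 in the first animal, 3 and 4 in the second, and 5 and 6 in the third. No animal carried a transgene, and the wounds carried dressings and no other treatment. A biopsy holds all cell types of the tissue, so fewer cells of a type and less RNA per cell cannot be told apart. Unwounded skin excised on day 0, 6 samples, is given beside the day 11 values as a background level. These came from 6 animals, of which 3 gave no day 11 sample. Each was the whole piece of skin that had been cut out, not a biopsy of an edge or center. Day 0 and day 11 values thus differ in animals and in sampling as well as in day.

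A full-thickness wound closes from its margin. Keratinocytes of the surrounding epidermis loosen from the basal layer, move under the scab and build the layers of keratins and lipids that form the barrier again. In the center, granulation tissue fills the defect, a mix of fibroblasts, new vessels and leukocytes in a provisional matrix of fibronectin and young collagen, which is later remodeled by proteases and contracted by myofibroblasts. A piece cut at the margin can span both skin and new tissue, and a piece from the center holds epidermis only where keratinocytes have reached it.

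Total counts on day 11 ran from 13955999 to 24895572 per sample, with medians of 17460073 at the edge and 17304935.5 in the center, and 23638 of 30461 genes had at least 1 count in these samples. A single library stood apart from its group. The center of wound 1 had a mean Pearson's r on counts of 0.853 with the other centers and of 0.889 with the edges, while the other 5 centers had 0.954 to 0.959 with the other centers. The edge of wound 3 also had a slightly higher mean r with the centers, 0.933, than with the other edges, 0.927. Results that rest on wound 1 are given with and without it for the epidermal lists, but for only some of the genes. Levels below are CPM, the count of a gene relative to the library total on the usual counts-per-megaread scale, after scaling by the trimmed mean of M-values. The log2 difference is the value at the edge minus that in the center, fitted with the wound as a block over 6 pairs, with its standard error and the adjusted p of edgeR's quasi-likelihood test. Since 2 wounds share an animal, p measures the spread between wounds more than that between animals.

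Of 14439 genes tested, 7020 (48.6%) differed between edge and center at an adjusted p below 0.05, 3455 (23.9%) higher and 3565 (24.7%) lower at the edge. A difference of at least 2-fold was found for 1781 genes (12.3%) higher and 1200 (8.31%) lower at the edge. Every edge sample lay above every center sample for 1532 genes (10.6%) and below for 1452 (10.1%). Among all genes tested, those with the highest log2 differences included FLG2, KRT2 and KRT10, and those with the lowest included MMP12 and SPP1.

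FLG2 (ENSSSCG00025060377), a filaggrin-like protein of the cornified layer, was at 426 to 2450 CPM at the edge (median 1570) and at 0.874 to 6.35 CPM in the center (median 2.58). No edge sample overlapped a center sample. The log2 difference was 9.07 ± 0.48 (adjusted p = 7.27e-05), and a shorter gene model matched to the same protein (ENSSSCG00025060263) gave 9.09 ± 0.60. KRT2, a keratin of the upper spinous layer, was at 2960 to 8700 CPM at the edge (median 5860) and at 6.19 to 25.3 CPM in the center (median 9.16), a log2 difference of 9.02 ± 0.47. KRT77 (ENSSSCG00025057592), a keratin known from sweat ducts, is counted here in the suprabasal list. It was at 85.5 to 214 CPM at the edge and at most 0.533 CPM in the center, a log2 difference of 8.83 ± 0.48. KRT10, the keratin of cells that leave the basal layer, was at 8990 to 32600 CPM at the edge and 23.5 to 130 CPM in the center, with medians of 19800 and 39.2 and a log2 difference of 8.68 ± 0.49. It made up 2.0% ± 0.664 (SD, n = 6) of all counts at the edge and 0.00598% ± 0.00438 in the center. The desmosomal proteins DSG1, PKP1 and DSC1 followed, with log2 differences of 8.79 ± 1.45, 8.56 ± 1.54 and 8.53 ± 0.98. Their larger errors go with the center of wound 1, which held 1090 CPM of DSG1, 1560 of PKP1 and 118 of DSC1, while no other center had more than 7.61, 12.3 and 5.59 CPM. CCL28, a chemokine made by epithelia, was at 22.0 to 52.2 CPM at the edge (median 31.5) and at most 0.276 CPM in the center, a log2 difference of 8.55 ± 0.46. C5orf46 was at 14.4 to 120 CPM at the edge and at most 0.355 CPM in the center, a log2 difference of 8.68 ± 0.57. With so few counts in the center, the fitted size of these last differences depends on the prior count of the fit.

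In the other direction MMP12 (macrophage elastase) came first by the same rule. It had 6.00 to 28.6 CPM at the edge (median 7.87) against 147 to 1120 CPM in the center (median 298). The groups did not overlap, and the log2 difference was -4.79 ± 0.63 (adjusted p = 0.000931). SPP1, osteopontin, a phosphoprotein of macrophages and remodeling matrix, was at 38.4 to 165 CPM at the edge and 367 to 3660 CPM in the center, with medians of 81.4 and 1660, a log2 difference of -4.06 ± 0.40. SIGLEC15, a sialic acid receptor of macrophages and osteoclasts, had a log2 difference of -3.89 ± 0.38. IDO1, which breaks down tryptophan in myeloid cells, had the same value, -3.89 ± 0.39, with 0.372 to 5.88 CPM at the edge and 6.39 to 70.9 CPM in the center. STMN2, a stathmin best known from neurons, was at 1.48 to 3.39 CPM at the edge and 6.38 to 82.5 CPM in the center, a log2 difference of -3.44 ± 0.51. Less even was SAA2, an acute phase protein, with 3.43 to 542 CPM at the edge and 38.4 to 1210 CPM in the center. Its groups overlapped, and its log2 difference of -4.72 ± 1.30 (adjusted p = 0.0194) was -3.95 with an adjusted p of 0.0552 without wound 2. The plot of the genes with the largest differences gives each sample.

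**Figure D1:**
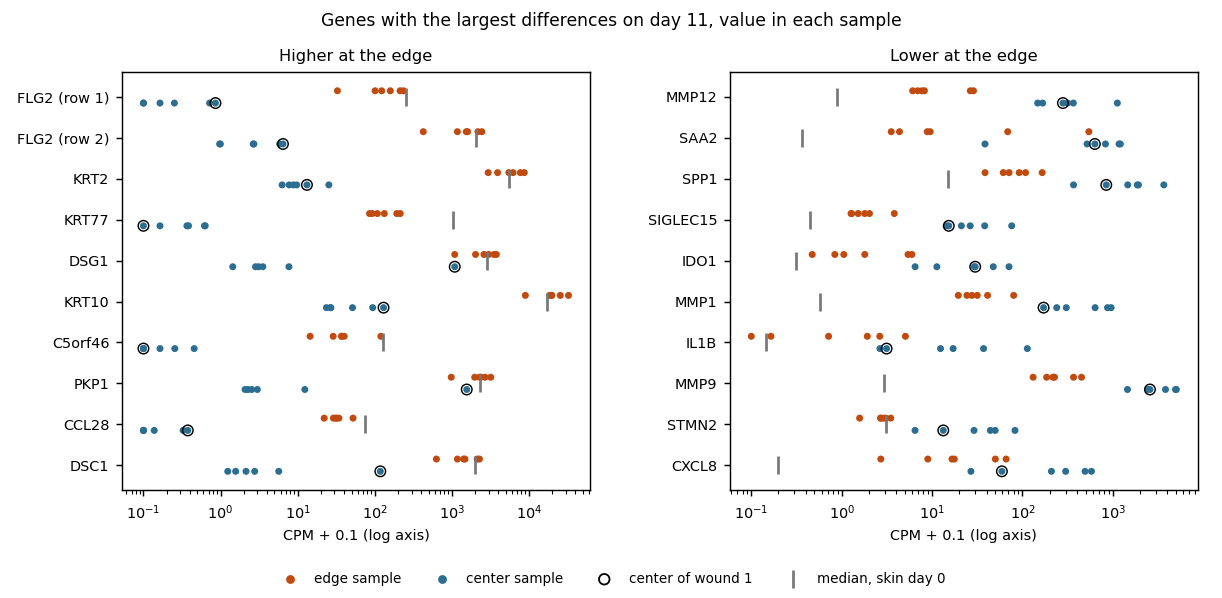
CPM + 0.1 on a log axis of 10 genes higher (left) and 10 lower (right) at the edge than in the center on day 11, 1 point a sample. These had the largest log2 differences among genes with a symbol, called in the same direction in all 6 wounds. Their mean log2 CPM was at least 4. The center of wound 1 is circled, and a gray bar gives the median of day 0 skin. In the left panel all edge points except those of DSG1 and PKP1 lie above all centers, including 426 to 2450 CPM against at most 6.35 CPM for FLG2 in row 2, and in the right panel SAA2, IL1B and CXCL8 overlap.

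The genes were grouped into 47 lists by cell type, structure or pathway, of which 872 of 1052 symbols were found in the table and passed the filter on low counts. Counts below are of these tested members. A member that is present only at the edge could pass the filter only through the edge samples, so the counts describe the lists and are read against 23.9% higher and 24.7% lower over all genes, and against a median log2 difference of -0.03. The plot of all lists ranks them by their median, from 7.81 for suprabasal differentiation to -1.52 for T and NK cells.

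**Figure D2:**
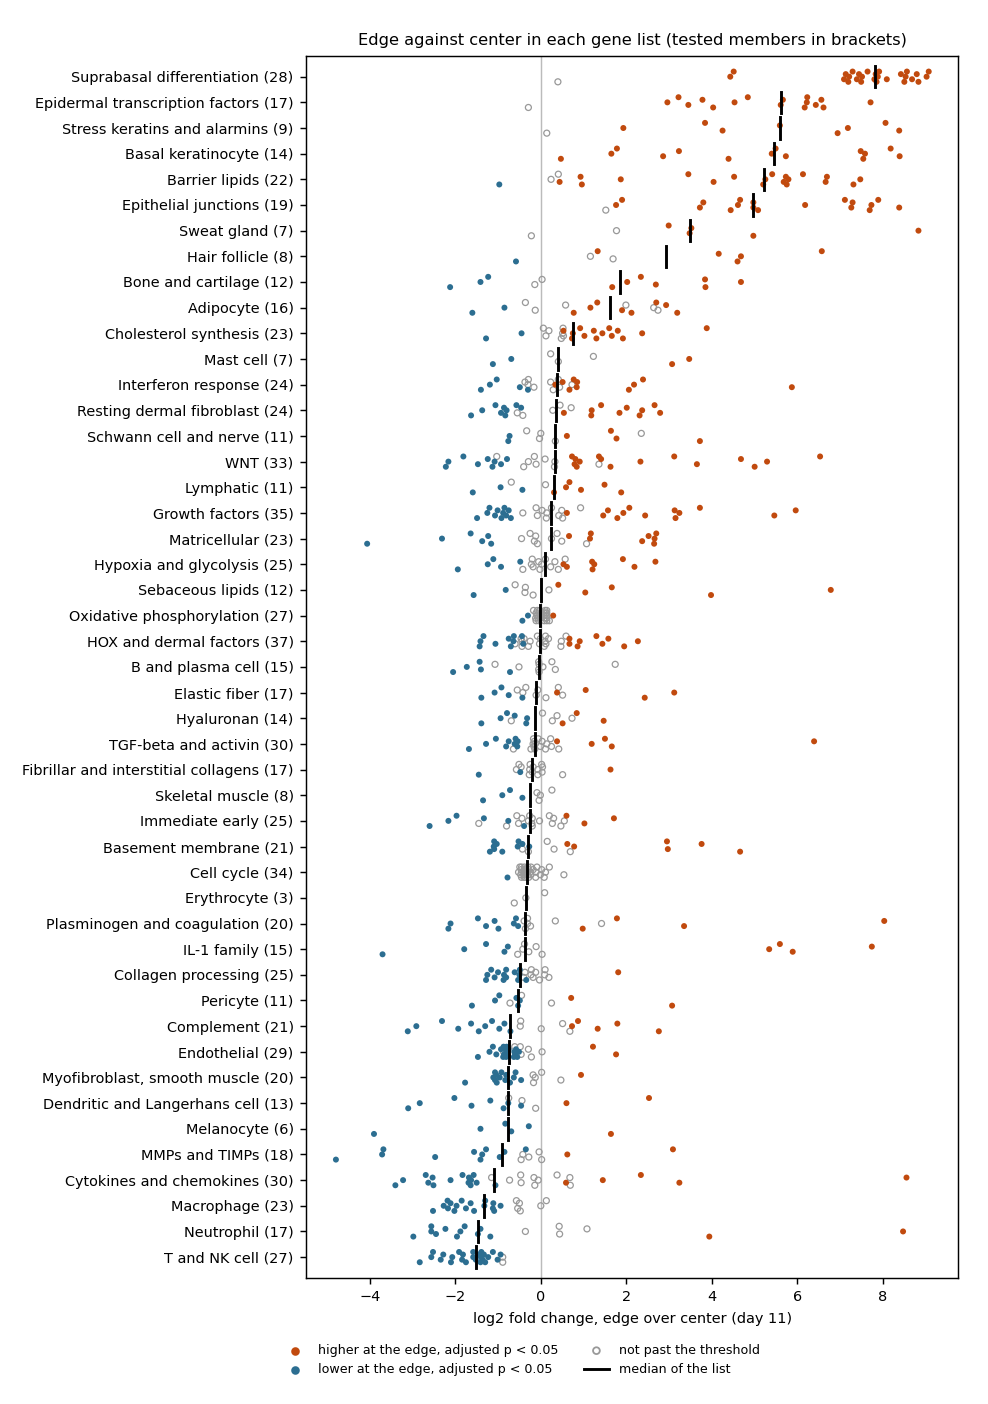
Log2 fold change of edge over center for every tested member of the 47 lists, 1 point a gene, filled where the adjusted p was below 0.05, with the median of each list as a bar. The 6 epidermal lists at the top have medians from 4.97 to 7.81, and the lists of T and NK cells, neutrophils and macrophages at the bottom have medians from -1.52 to -1.32.

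Genes of the basal layer, where keratinocytes divide and are tied to the basement membrane, were higher at the edge in 14 of 14 tested members, with a median log2 difference of 5.44. KRT5, the basal type II keratin, was at 3390 to 9540 CPM at the edge (median 8230), near the day 0 median of 7510, and at 9.76 to 47.9 CPM in 5 of 6 centers. The center of wound 1 had 5020 CPM, within the range of the edges, so that the groups overlapped. The log2 difference was 8.18 ± 1.45 (adjusted p = 0.0031), and 8.84 without wound 1. TP63, the transcription factor that defines the basal layer, was at 131 to 224 CPM at the edge and at most 1.10 CPM in those 5 centers, with 122 CPM in the center of wound 1 and a log2 difference of 7.54 ± 1.49. COL17A1, the hemidesmosomal collagen, had 650 to 1630 CPM at the edge, at most 9.37 CPM in the 5 centers and 1220 CPM in wound 1, a log2 difference of 7.48 ± 1.35. DSG3, the desmoglein of the lower layers, gave 8.39 ± 1.67 and was higher at the edge in 5 of 6 wounds. The lowest values in the list were those of DST, ITGA6 and ITGB4, at 0.47, 1.65 and 1.78. KRT14, the partner of KRT5, was not found under that name.

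Suprabasal and cornified genes were higher at the edge in 27 of 28 tested members, with a median log2 difference of 7.81. KRT1, the partner of KRT10, was at 5130 to 21500 CPM at the edge (median 17500) and 13.9 to 155 CPM in the center (median 34.1), a log2 difference of 8.50 ± 0.53. Edge and center did not overlap for KRT1, KRT10, KRT2 or FLG2. IVL, involucrin, an early part of the cornified envelope, was at 124 to 964 CPM at the edge and at most 3.42 CPM in 5 centers, but at 1010 CPM in the center of wound 1, above every edge sample. Its log2 difference was 7.80 ± 1.58 with wound 1 and 8.54 without it. The desquamation protease KLK5 and its inhibitor SPINK5 had log2 differences of 7.51 ± 0.78 and 8.09 ± 1.25. TGM3, an envelope transglutaminase, was the member that did not pass, at 0.40 ± 0.51.

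Keratins and alarmins that skin makes under stress were higher at the edge in 8 of 9 tested members, with a median log2 difference of 5.59. KRT6C, a keratin of activated keratinocytes, was at 3500 to 28100 CPM at the edge (median 12700, day 0 median 828) and at 9.35 to 120 CPM in 5 centers, with 20700 CPM in the center of wound 1. KRT6B gave 417 to 2580 CPM at the edge, at most 9.47 CPM in the 5 centers and 1970 CPM in wound 1. Their log2 differences were 8.06 ± 1.68 and 8.38 ± 1.75. KRT6 genes are near-identical copies, so that reads may be split between them. S100A8 and S100A9 form calprotectin, which both stressed keratinocytes and neutrophils make. S100A8 was at 162 to 1010 CPM at the edge and 11.9 to 55.4 CPM in 5 centers, with 2220 CPM in wound 1, the highest of all 12 samples. Its log2 difference of 3.84 ± 1.18 (adjusted p = 0.0291) was 4.47 (adjusted p = 2e-06) without wound 1, and the adjusted p lay between 0.0734 and 0.0864 when any other wound was left out. S100A9 gave 4.25 ± 1.18, with 4030 CPM in the center of wound 1 and at most 2540 CPM at an edge. Called members of this list numbered 5 rather than 8 when any of wounds 2 to 6 was left out. SLPI, a secreted protease inhibitor, was at 1010 to 1570 CPM at the edge and at most 114 CPM in the center, and IL36G, a keratinocyte cytokine, had a log2 difference of 5.59 ± 0.48. Of the defining members, KRT6A, KRT16 and KRT17 were not found under those names.

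The transcription factors of the epidermis were higher at the edge in 16 of 17 tested members, with a median log2 difference of 5.61. ZNF750, which drives terminal differentiation, was at 82.7 to 160 CPM at the edge and at most 0.414 CPM in 5 centers, with 79.7 CPM in wound 1 and a log2 difference of 7.71 ± 1.44. OVOL1 and GRHL1, repressor and activator in the same program, gave 6.56 ± 1.15 and 6.61 ± 1.29. GRHL3, needed for barrier repair, gave 3.78 ± 0.72, and KLF4, a factor of the upper layers that other dermal cells also make, gave 3.45 ± 0.45 with 18.6 to 90.2 CPM in 5 centers. PRDM1, which lymphocytes and macrophages also use, was the member that did not pass, at -0.29.

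Lipid synthesis for the barrier showed the same side in 19 of 22 tested members, with 1 lower and a median log2 difference of 5.23. CERS3 and ABCA12, which make and load the ultra-long ceramides of lamellar bodies, gave 7.47 ± 1.39 and 7.31 ± 1.44. The lipoxygenases ALOX12B and ALOXE3, which oxidize those ceramides, gave 6.66 ± 1.08 and 6.69 ± 1.02. ALOX12B was at 96.0 to 178 CPM at the edge and at most 1.55 CPM in 5 centers, with 52.1 CPM in wound 1. Among epithelial junction genes 18 of 19 tested members were higher, with a median log2 difference of 4.97. DSP, the desmosomal plaque protein, was at 2370 to 7110 CPM at the edge and at most 27.2 CPM in 5 centers, with 3350 CPM in wound 1 and a log2 difference of 8.38 ± 1.49. CDH1, E-cadherin, had 255 to 452 CPM at the edge, at most 1.98 CPM in the 5 centers and 391 CPM in wound 1, a log2 difference of 7.26 ± 1.40. The splicing factor of epithelia ESRP1 gave 7.89 ± 1.42, and the tight junction claudins CLDN1 and CLDN4 gave 5.08 ± 0.85 and 4.66 ± 0.93.

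The center of wound 1 thus held epidermal transcripts at levels that the other 5 centers did not reach, and in other proportions than an edge sample. It was at or above the lowest edge sample for 12 of 14 basal genes, 7 of 9 stress genes, 10 of 19 junction genes, 13 of 22 barrier lipid genes, 9 of 28 suprabasal genes and 5 of 17 epidermal transcription factors. The laminin chains LAMA3 and LAMB3, which keratinocytes lay down as an anchor, were above every edge sample there, with LAMA3 at 288 CPM against 57.4 to 139 CPM and LAMB3 at 356 CPM against 53.1 to 227 CPM. KRT15 was at 17300 CPM, within the 4710 to 24900 CPM of the edges. KRT10 and KRT1, in contrast, were at 130 and 155 CPM, near the highest of the other centers (94.0 and 94.2 CPM), and KRT2, FLG2 and KRT77 were at 13.1, 6.35 and 0 CPM. These values of a single library carry no replicate. Without wound 1 the medians of the 6 lists were 6.20 for basal, 8.51 for suprabasal, 6.42 for stress, 6.40 for transcription factor, 5.89 for barrier and 5.96 for junction genes. The calls in these lists depended on the pairing and on the unit of replication. With the wounds of an animal summed, so that 3 animals were compared, the members higher at the edge were 3 of 14 basal, 18 of 28 suprabasal, 2 of 9 stress, 10 of 17 transcription factor, 13 of 22 barrier and 10 of 19 junction genes. Without the wound as a block they were 1 of 14, 17 of 28, 2 of 9, 10 of 17, 12 of 22 and 9 of 19. The genes that lost their call with animals summed included KRT5 (6.89, adjusted p = 0.0696), TP63, COL17A1, DSG1, DSG3, DSP, CDH1, PKP1, IVL, KRT6B, KRT6C, S100A8 and ZNF750, whose adjusted p was 0.053 to 0.238.

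**Figure D3:**
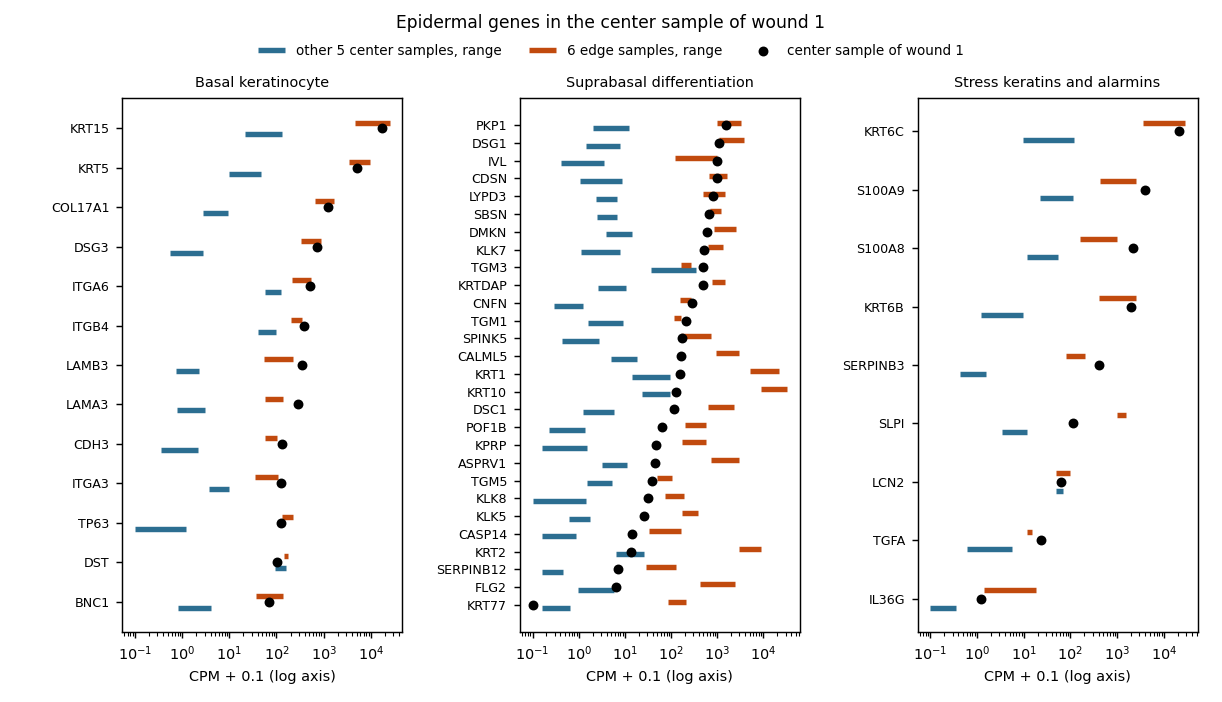
CPM + 0.1 on a log axis of basal, suprabasal and stress genes: the center of wound 1 (black points), the range of the other 5 centers (blue) and of the 6 edges (orange). Most basal and stress genes of the center of wound 1 reach the edge range (KRT6C at 20700 CPM), while KRT10, KRT1, KRT2, FLG2 and KRT77 remain in or near the range of the other centers.

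Of genes of the structures that grow from the epidermis, those of hair were mostly too low to test. Only 8 of 23 listed hair follicle genes passed the filter, 5 higher and 1 lower at the edge. KRT27 and KRT71, keratins of the inner root sheath, were at 349 and 308 CPM at the edge of wound 3, and KRT27 did not exceed 1.29 CPM in any other sample of day 11. In day 0 skin KRT27 ran from 5.82 to 6300 CPM. TCHH, trichohyalin, was at 65.5 CPM at that edge and at 0 in all 6 centers. FOXN1, a factor of hair and keratinocyte differentiation, was at 14.8 to 28.3 CPM at the edge and at 0 to 9.38 CPM in the center, a log2 difference of 6.57 ± 1.30 (10.19 without wound 1). SOX9, which marks the outer root sheath and also cartilage, gave 4.68 ± 0.82. Of the sweat gland genes 5 of 7 tested members were higher, with a median log2 difference of 3.48. AQP5, the water channel of the secretory coil, was at 7.04 to 67.7 CPM at the edge and 0.342 to 1.45 CPM in the center, a log2 difference of 4.97 ± 0.46, while DCD and SCGB1D2 were not found.

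Members of the sebaceous list gave no common direction, with 5 of 12 tested members higher, 2 lower and a median log2 difference of 0.01. The summed level did not follow the median. It was 1080 to 1770 CPM at the edge and 561 to 764 CPM in the center, and higher at the edge in 6 of 6 wounds. SCD, the stearoyl-CoA desaturase, was at 386 to 760 CPM at the edge and 92.6 to 280 CPM in the center without overlap, a log2 difference of 1.66 ± 0.13. DGAT2 and ACSBG1, also of lipid synthesis, gave 3.98 ± 0.37 and 6.78 ± 1.18, while SOAT1, which esterifies cholesterol and is strong in macrophages, gave -1.57 ± 0.12. The sebaceous wax synthase AWAT2 was at 0 in all centers and at most 0.261 CPM at the edge. The cholesterol pathway was higher at the edge in 14 of 23 tested members and lower in 2 (17 and 2 without wound 1), with a median log2 difference of 0.75. HMGCS1 and SQLE, enzymes of its early and middle steps, gave 1.92 ± 0.44 and 1.44 ± 0.34, and DHCR7, which makes the last step, gave 3.88 ± 0.85. INSIG1, which holds the pathway back when sterols are high, was lower at -1.28 ± 0.26.

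The defining pigment cell genes, TYR, TYRP1, DCT and PMEL, were near or below detection. TYR was at 0 in every sample, and TYRP1, DCT and PMEL did not exceed 1.22 CPM on day 11. Of 6 tested members 5 were lower at the edge and 1 was higher, by at least 2-fold. With a wound left out, 2 to 4 members were called lower and 0 or 1 higher. The largest difference was that of MLANA, with 0 to 0.532 CPM at the edge and 2.51 to 15.0 CPM in the center (-3.90 ± 0.62). MITF and KIT, which macrophages and mast cells also make, gave -0.83 ± 0.12 and -0.69 ± 0.19. KIT lost its call without any of wounds 2, 4, 5 and 6 (adjusted p from 0.0533 to 0.07). In the list of Schwann cells and nerve, 4 of 11 tested members were higher and 2 lower, and 2 to 5 were higher with a wound left out. NGFR, the low-affinity neurotrophin receptor, was at 8.72 to 20.4 CPM at the edge and 1.65 to 6.35 CPM in the center, a log2 difference of 1.77 ± 0.32. ERBB3, also an epithelial receptor, gave 3.72 ± 0.62. SOX10 gave 1.64 ± 0.55 (adjusted p = 0.0415), which lay between 0.064 and 0.0894 without any of wounds 2 to 6.

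The main collagens of the dermis were not among the genes that differed. COL1A1 was at 34600 to 45400 CPM at the edge and 27800 to 60000 CPM in the center, and took 3.75% ± 0.33 and 3.98% ± 1.12 of all counts (SD, n = 6). The log2 differences of COL1A1, COL1A2 and COL3A1 were 0.03 ± 0.29, 0.04 ± 0.26 and -0.18 ± 0.28, with adjusted p of 0.937, 0.92 and 0.621. Both places lay above the day 0 medians of 17700, 15600 and 18900 CPM, but day 0 skin varied widely. The summed level of the collagen list ran from 35800 to 122000 CPM in day 0 skin. It was 101000 to 140000 CPM at the edge and 87700 to 187000 CPM in the center, so that the ranges overlapped. Of 17 tested collagens of this list, 1 was higher and 2 were lower, with a median log2 difference of -0.20, and 5 were lower without wound 1. COL5A3 was at 115 to 170 CPM at the edge and 297 to 635 CPM in the center without overlap (-1.45 ± 0.14), and COL8A1 at 26.8 to 60.9 CPM and 9.92 to 15.1 CPM (1.63 ± 0.20).

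Enzymes that modify, fold and crosslink collagen were lower at the edge in 14 of 25 tested members and higher in 1, with a median log2 difference of -0.49. PLOD2, the telopeptide lysyl hydroxylase, was at 42.7 to 104 CPM at the edge and 98.8 to 306 CPM in the center, a log2 difference of -1.16 ± 0.21. The crosslinking oxidase LOXL3 gave -1.28 ± 0.22. LOX, P4HA1 and the collagen chaperone SERPINH1 did not pass, at -0.40 ± 0.18, -0.22 ± 0.18 and -0.18 ± 0.15. P3H2, a prolyl hydroxylase of basement membrane collagen, was higher at the edge at 1.81 ± 0.33.

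Proteins that sit in the matrix and signal to cells went both ways. FN1, fibronectin, was at 1180 to 2600 CPM at the edge (median 1440) and 3920 to 12600 CPM in the center (median 7830), with a day 0 median of 411. The groups did not overlap, and the log2 difference was -2.31 ± 0.31 (adjusted p = 0.000952). POSTN, periostin, went the other way, with 2530 to 5670 CPM at the edge and 325 to 1170 CPM in the center, a log2 difference of 2.52 ± 0.23 (adjusted p = 0.000242). Its edge median of 3180 CPM was near the day 0 median of 3290. TNC, tenascin-C, was at 1050 to 2870 CPM and 807 to 2220 CPM, far above its day 0 median of 39.7, and did not differ past the threshold (-0.15 ± 0.24). Of the CCN family, CCN1 and CCN2, targets of stretch and TGF-beta, gave -1.23 ± 0.21 and -1.16 ± 0.17, and CCN3 gave 2.70 ± 0.22. In all, 8 of 23 tested matricellular genes were higher and 6 lower at the edge, with a median log2 difference of 0.25.

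Genes of the resting dermal fibroblast also divided, with 10 of 24 tested members higher, 9 lower and a median log2 difference of 0.37. PI16, which marks the fibroblasts of unwounded adventitia and reticular dermis, was at 42.0 to 160 CPM at the edge (median 101) and 9.94 to 39.9 CPM in the center (median 19.3), below its day 0 median of 577 at both. The log2 difference was 2.31 ± 0.26, without overlap. DPT, APOD and FBLN1 gave 1.18 ± 0.29, 2.01 ± 0.56 and 2.66 ± 0.43, and APOD fell short without wound 2 (adjusted p = 0.0557). GPX3, a secreted peroxidase, gave 2.79 ± 0.93 (adjusted p = 0.0391), and 0.0671 to 0.0953 without any of wounds 2 to 6. Among the lower members were ASPN at -1.06 ± 0.21, BGN at -0.83 ± 0.16 and DCN at -0.57 ± 0.20, which are small proteoglycans of fibrous matrix. The complement protease CFD, also of adipocytes and macrophages, gave -1.63 ± 0.32. With a wound left out, the count of higher members went down to 6 (without wound 2), and that of lower members to 5 (without wound 5 or 6).

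ELN, elastin, was at 198 to 406 CPM at the edge (median 223) and 32.5 to 77.5 CPM in the center (median 42.9), with a day 0 median of 374. The log2 difference was 2.43 ± 0.14 (adjusted p = 9.88e-05). EFEMP1, a fibulin, gave 3.12 ± 0.43. FBN1, the fibrillin on which elastin is laid, and FBLN5 gave -0.42 ± 0.16 and -0.07 ± 0.19 and did not pass. FBN1 was called lower at the edge without wound 1 (-0.50, adjusted p = 0.0252) and without wound 3 (-0.51, adjusted p = 0.0451). The list had 4 of 17 tested members higher and 5 lower (3 and 8 without wound 1).

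Matrix metalloproteinases were lower at the edge in 11 of 18 tested members of the MMP and TIMP list and higher in 2, with a median log2 difference of -0.90 (13, 2 and -1.03 without wound 1). The summed level of the list was 5290 to 7460 CPM at the edge and 10700 to 23500 CPM in the center, against 1440 to 3110 CPM in day 0 skin. MMP9, the gelatinase of neutrophils and macrophages, was at 131 to 450 CPM at the edge and 1450 to 5030 CPM in the center, a log2 difference of -3.68 ± 0.26. MMP1, the interstitial collagenase, was at 19.4 to 79.8 CPM and 171 to 956 CPM, a log2 difference of -3.71 ± 0.54. Neither gene had an edge sample in the range of the centers. MMP13, another collagenase, gave -2.47 ± 0.66 (adjusted p = 0.0177, and 0.0581 and 0.058 without wounds 4 and 6). MMP2 and its activator MMP14, of fibroblasts, gave -0.96 ± 0.22 and -0.85 ± 0.19, and their inhibitor TIMP1 gave -1.56 ± 0.14. Higher at the edge were MMP27 at 3.09 ± 0.51 and MMP28, an epidermal member, at 0.62 ± 0.21. MMP3 was not found.

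Basement membrane genes separated into 10 of 21 lower and 6 higher at the edge, with a median log2 difference of -0.29. COL4A1 and COL4A2, the chains that vessels share with all other basement membranes, were at 1430 to 2360 and 973 to 1710 CPM at the edge and at 2540 to 4940 and 1690 to 3610 CPM in the center. Their log2 differences were -1.10 ± 0.17 and -1.03 ± 0.17. The epithelial chain COL4A6 was higher at 3.76 ± 0.69, and FREM1, of the junction between epidermis and dermis, was at 2.49 to 6.21 CPM and 0.038 to 0.259 CPM, a log2 difference of 4.66 ± 0.30. COL7A1, the anchoring fibril, did not differ past the threshold (0.15 ± 0.22). LAMA5 gave 0.62 ± 0.18, and its adjusted p was 0.0672 without wound 2.

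Contractile genes were lower at the edge in 14 of 20 tested members and higher in 1, with a median log2 difference of -0.76, and the summed level was 4480 to 4870 CPM at the edge and 6660 to 9910 CPM in the center. ACTA2, the actin of myofibroblasts and vessel walls, was at 229 to 328 CPM at the edge and 268 to 688 CPM in the center, with overlap and a day 0 median of 368. Its log2 difference was -0.63 ± 0.18 (adjusted p = 0.0212, and 0.0684 without wound 4). TAGLN gave -0.96 ± 0.19, TPM2 -1.77 ± 0.14 and MYL9 -1.11 ± 0.09, the last 2 without overlap. MYH11, the myosin of mature smooth muscle, was higher at the edge, with 53.7 to 121 CPM against 24.0 to 89.6 CPM (0.94 ± 0.19), and lay below its day 0 median of 320 at both places. CNN1 did not pass, at -0.18 ± 0.18.

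Endothelial genes were lower at the edge in 20 of 29 tested members and higher in 2, with a median log2 difference of -0.75 (23, 1 and -0.72 without wound 1). PECAM1 was at 228 to 348 CPM at the edge and 325 to 669 CPM in the center, above the day 0 median of 151 at both, and the log2 difference was -0.77 ± 0.15. CDH5, the cadherin of endothelial junctions, KDR, the main VEGF receptor, and VWF gave -0.87 ± 0.14, -0.88 ± 0.13 and -0.58 ± 0.12. The largest called differences were those of SELP, P-selectin, at -1.47 ± 0.20, and SOX7 at 1.76 ± 0.20. Of 11 tested pericyte genes 6 were lower and 2 higher. RGS5 gave -0.57 ± 0.17 and lost its call without wound 3, 4, 5 or 6 (adjusted p from 0.0574 to 0.0872), and 3 members were lower without wound 5 or 6. NOTCH3 and NDUFA4L2 were higher, at 0.71 ± 0.10 and 3.07 ± 0.58, the latter with 374 CPM in the center of wound 1 and an edge range of 130 to 419 CPM. Lymphatic genes gave 6 of 11 higher and 3 lower. Their summed level went the other way, with 218 to 344 CPM at the edge and 330 to 517 CPM in the center. It was lower at the edge in 6 of 6 wounds. PROX1, the factor that sets lymphatic identity, was at 2.47 to 6.03 CPM at the edge and 1.15 to 2.96 CPM in the center (0.94 ± 0.15), and FLT4 did not differ past the threshold (0.11 ± 0.11). LYVE1 and PDPN, which macrophages and fibroblasts also make, were lower, at -0.94 ± 0.14 and -1.59 ± 0.13.

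Leukocyte lists were described by cell type. Of 23 tested macrophage genes 17 were lower at the edge and 0 higher, with a median log2 difference of -1.32 in edgeR's fit. At an unadjusted p below 0.05, 18 were lower and 0 higher, and DESeq2 gave 18 and 0. CD68, the lysosomal marker, was at 22.5 to 56.5 CPM at the edge (median 37.3) and 118 to 209 CPM in the center (median 152), a log2 difference of -2.17 ± 0.18. CD163, the hemoglobin scavenger receptor, gave -2.11 ± 0.18, and CSF1R, the receptor on which macrophages depend, -1.56 ± 0.15. CTSS and CD14 had the largest differences, -2.52 ± 0.24 and -2.27 ± 0.23, without overlap. The complement genes C1QA, C1QB and C1QC did not pass, at -0.57, -0.48 and -0.54. The summed level of the list was 2090 to 3830 CPM at the edge and 5120 to 8940 CPM in the center, against 1410 to 1930 CPM in day 0 skin, so that both places lay above unwounded skin.

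T and NK cell genes gave 25 of 27 tested members lower at the edge and 0 higher in edgeR's fit, with a median log2 difference of -1.52 (23 and -1.40 without wound 1). At an unadjusted p below 0.05, 26 were lower and 0 higher, and DESeq2 gave 26 and 0. CD3E, of the T cell receptor complex, was at 4.25 to 24.7 CPM at the edge and 15.8 to 94.7 CPM in the center, with a day 0 median of 1.20. The edge of wound 3, at 24.7 CPM, reached the range of the centers, but within each wound the edge was lower, and the log2 difference was -1.58 ± 0.22. CD3D and CD2 gave -1.39 ± 0.23 and -1.46 ± 0.26. NKG7, of cytotoxic granules, was at 10.7 to 31.3 CPM and 56.0 to 81.8 CPM without overlap (-1.91 ± 0.24). CCR7 and IL7R, the homing and survival receptors of naive and memory T cells, gave -2.83 ± 0.31 and -2.56 ± 0.15. The summed level was 57.0 to 311 CPM at the edge and 252 to 1100 CPM in the center, where wound 3 had 1100 CPM and the other 5 had 252 to 457 CPM.

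Neutrophil genes were lower at the edge in 11 of 17 tested members and higher in 2, with a median log2 difference of -1.47. CSF3R, the receptor for G-CSF, was at 6.18 to 39.8 CPM at the edge and 46.0 to 156 CPM in the center, a log2 difference of -2.98 ± 0.31. The oxidase subunit CYBB, which macrophages also make, gave -2.56 ± 0.20. CXCR2 did not pass, at 0.44 ± 0.39. The members higher at the edge were S100A12 (3.94 ± 1.15), which like S100A8 had its highest value, 2410 CPM, in the center of wound 1, and LTF, lactoferrin, also made by glands, at 0.745 to 86.0 CPM at the edge and at most 0.138 CPM in the center. S100A12 lost its call without any of wounds 2 to 6 (adjusted p from 0.0676 to 0.0748). The summed level of the list, to which S100A12 gives up to 1430 CPM at an edge, did not follow the median, with 490 to 2020 CPM at the edge and 573 to 3230 CPM in the center, and was higher at the edge in 5 of 6 wounds.

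Dendritic cell genes were lower in 8 of 13 tested members and higher in 2. CD207, langerin, of the Langerhans cells that live in the epidermis, was at 2.17 to 4.68 CPM at the edge (median 3.28, day 0 median 4.90) and 0.447 to 1.01 CPM in the center, a log2 difference of 2.53 ± 0.29. FLT3 and ITGAX, of dermal dendritic cells and, for ITGAX, macrophages, gave -1.62 ± 0.18 and -3.10 ± 0.34. In B and plasma cells 5 of 15 tested members were lower (3 without wound 1), with a median log2 difference of -0.05. BLK and CD22 gave -2.05 ± 0.22 and -1.73 ± 0.25. JCHAIN, which links secreted antibodies, was at 110 to 331 CPM at the edge and 15.7 to 337 CPM in the center, and gave 1.74 ± 0.70 (adjusted p = 0.0727), or 2.29 (adjusted p = 0.00481) without wound 1. The plasma cell genes MZB1, DERL3 and TNFRSF17 were at 0.34, -0.05 and 0.26 and did not pass. In the mast cell list HDC, which makes histamine, and HPGDS were higher at 3.47 ± 0.44 and 3.07 ± 0.57 on levels under 3 CPM, KIT and SIGLEC6 were lower, and CPA3 was not found. The adjusted p of SIGLEC6, 0.0462, was 0.0842 to 0.106 without wound 2, 3, 5 or 6. Neither KIT nor SIGLEC6 kept its call without wound 2, 5 or 6, though their log2 differences stayed negative.

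**Figure D4:**
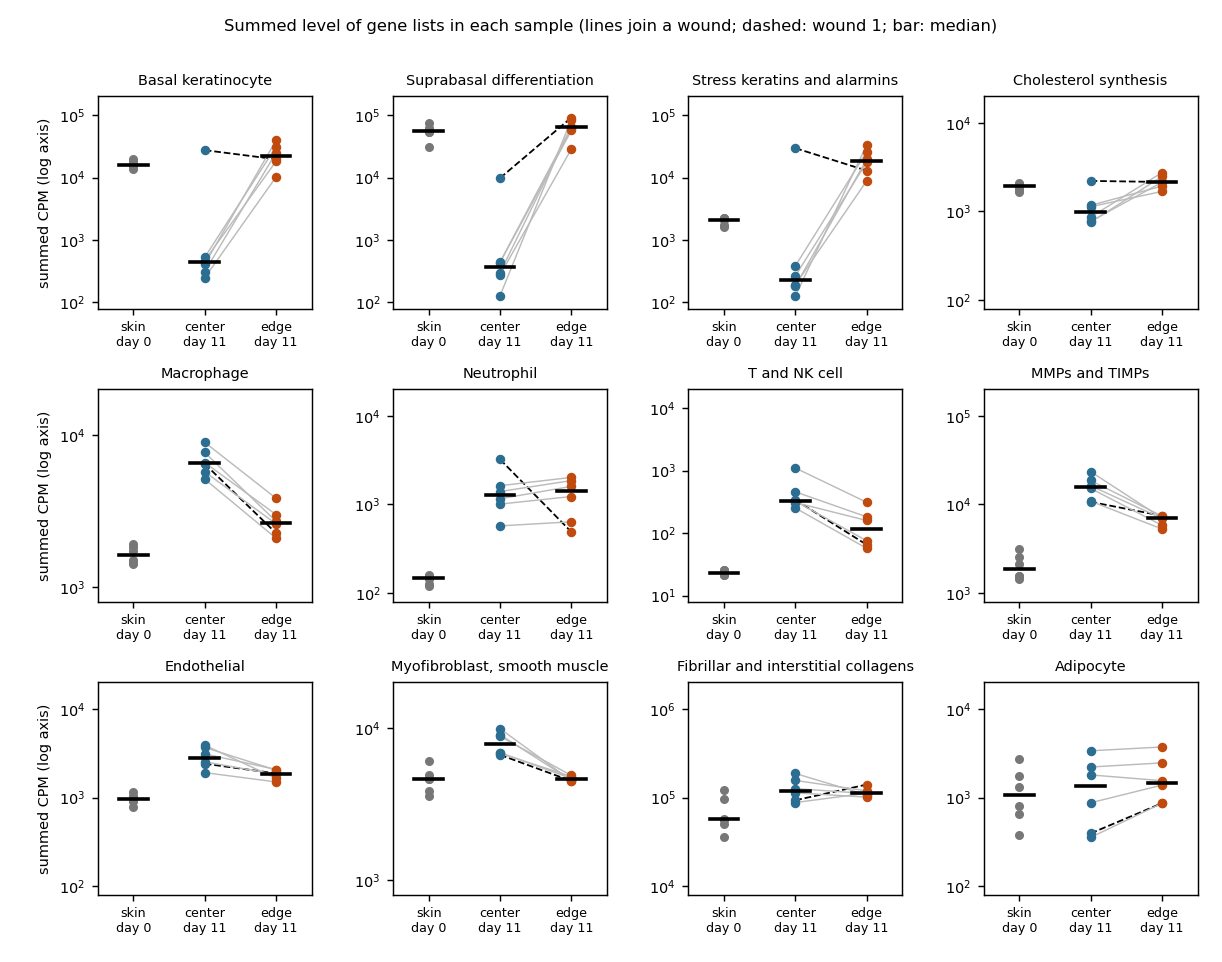
Summed CPM of 12 gene lists on log axes in day 0 skin (gray), day 11 centers (blue) and edges (orange), 1 point a sample, with lines joining the edge and center of a wound, wound 1 dashed and medians as bars. The basal sum of wound 1 is higher in the center (27400 CPM) than at the edge (19600 CPM), and the macrophage sums of all 6 wounds are lower at the edge (2090 to 3830 CPM) than in the center (5120 to 8940 CPM).

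Chemokines and cytokines that call leukocytes in were lower at the edge in 15 of 30 tested members and higher in 5, with a median log2 difference of -1.10. CXCL8, the main neutrophil chemokine, was at 2.61 to 65.8 CPM at the edge (median 17.0) and 26.8 to 579 CPM in the center (median 254), a log2 difference of -3.40 ± 1.01 (adjusted p = 0.0256). Leaving out wound 2, 3, 4 or 6 gave adjusted p of 0.062 to 0.0795. CXCL2, its companion, gave -2.63 ± 0.66, and CCL2, the monocyte chemokine, was at 11.2 to 66.1 CPM and 37.5 to 190 CPM (-1.50 ± 0.24). IL6 gave -1.57 ± 0.25, TNF -1.63 ± 0.38, CSF3 -2.69 ± 0.54 and IL11 -3.22 ± 0.72. CCL17 and CCL22, which dendritic cells use to draw T cells, gave -2.53 ± 0.50 and -2.51 ± 0.50. Higher at the edge were CCL28, CCL26 at 2.34, CXCL11 at 3.24 ± 1.10, CX3CL1 at 1.45 and CCL21, the lymphatic chemokine, at 0.59 ± 0.07.

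Members of the IL-1 family went both ways. IL1B, which leukocytes make, was at 0 to 4.97 CPM at the edge and 2.55 to 113 CPM in the center, and the edge was lower in all 6 wounds (-3.70 ± 0.98, adjusted p = 0.0168, and 0.0613 without wound 3). NLRP3 and CASP1, which release it, gave -1.79 ± 0.16 and -0.85 ± 0.27. IL1A, which keratinocytes store, gave -0.77 ± 0.27 (adjusted p = 0.0445, and 0.0622 to 0.117 without wounds 2, 3, 5 or 6). The antagonist IL1RN was at 46.5 to 91.0 CPM and 6.51 to 163 CPM and gave 0.03 ± 0.55. Epidermal members were higher at the edge: IL36RN, with 82.3 to 153 CPM at the edge and at most 71.1 CPM in the center, gave 7.74 ± 1.36, IL1F10 gave 5.89 ± 0.78, IL36A 5.34 and IL36G 5.59. In all 4 of 15 tested members were higher and 5 lower. Lower members numbered 2 without wound 3, 3 without wound 5 or 6, and 7 without wound 1.

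Interferon-stimulated genes gave 10 of 24 tested members higher and 5 lower, with a median log2 difference of 0.38 (12, 4 and 0.49 without wound 1), and 3 were lower without wound 2. ISG15, a ubiquitin-like protein, was at 97.0 to 472 CPM at the edge and 24.1 to 78.4 CPM in the center without overlap, a log2 difference of 2.18 ± 0.36. OASL gave 5.87 ± 0.61, DDX60 2.39 ± 0.51 and RSAD2 2.06 ± 0.47. MX1 gave 0.34 ± 0.12 (adjusted p = 0.0457), and 0.056 to 0.124 without wounds 2, 3, 5 or 6. IRF1 and GBP1, which answer interferon gamma in leukocytes, were lower, at -1.40 ± 0.21 and -1.19 ± 0.35. Of complement genes 11 of 21 tested members were lower and 5 higher. C3, the hub of the cascade, was at 33.2 to 331 CPM at the edge and 440 to 1200 CPM in the center (-2.91 ± 0.53). FCN1, a monocyte lectin, gave -3.11 ± 0.42, and the C5a receptor C5AR1 -1.93 ± 0.12. C7 and C4A, of stromal cells, were higher at 1.79 ± 0.46 and 2.76 ± 0.73, and 3 members were higher without wound 3.

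In the TGF-beta and activin list 9 of 30 tested members were lower at the edge and 5 higher, with a median log2 difference of -0.15, and 5 were lower without wound 4, 5 or 6. The ligand TGFB1 was at 97.4 to 125 CPM at the edge and 170 to 334 CPM in the center, without overlap and above the day 0 median of 27.6 at both (-1.05 ± 0.11). INHBA, which forms activin A, gave -1.68 ± 0.33. TGFB3 did not pass, at -0.17 ± 0.13. Higher at the edge were BMP7 (6.39 ± 1.07), BMP2 (1.19 ± 0.19), their target ID1 (1.50 ± 0.26) and the activin trap FST (1.66 ± 0.33).

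WNT genes were higher at the edge in 15 of 33 tested members and lower in 9, with a median log2 difference of 0.33. WNT3 and WNT16, ligands of the epidermis, were at 46.9 to 89.9 and 26.9 to 42.8 CPM at the edge and at most 23.1 and 1.66 CPM in the center, log2 differences of 5.29 ± 0.72 and 6.53 ± 0.53. WNT5A, a ligand of dermal cells, was at 40.6 to 61.3 CPM at the edge and 55.1 to 365 CPM in the center, the 55.1 CPM in wound 1, and gave -2.16 ± 0.40. RSPO1, which amplifies WNT signals, and WNT2 gave -2.22 ± 0.14 and -1.81 ± 0.26. The secreted antagonists SFRP1 and DKK3 were lower at -1.47 ± 0.22 and -1.13 ± 0.19, and AXIN2, a target gene of the pathway, was at 23.0 to 35.0 CPM and 8.29 to 21.2 CPM, without overlap (0.84 ± 0.14).

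Growth factors and their receptors gave 13 of 35 tested members higher and 11 lower. Among the higher members, EREG, an EGF family ligand, was at 20.7 to 102 CPM at the edge and 2.33 to 44.0 CPM in the center (3.13 ± 0.45), and the receptors EGFR and ERBB2 gave 2.44 ± 0.35 and 3.24 ± 0.36 without overlap. FGFR3, the FGF receptor of keratinocytes, and FGFBP1, which frees FGF from matrix, gave 5.46 ± 0.69 and 5.96 ± 1.49. FGF7, which fibroblasts send to keratinocytes, was lower at the edge, with 12.3 to 26.2 CPM against 15.8 to 62.5 CPM (-1.25 ± 0.27). The PDGF receptors PDGFRA and PDGFRB, of fibroblasts and pericytes, gave -1.49 ± 0.21 and -1.07 ± 0.16, without overlap. HGF gave -0.70 ± 0.24 (adjusted p = 0.0418), and 0.0628 to 0.138 without wounds 1, 2, 4, 5 or 6.

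In the plasminogen and coagulation list 9 of 20 tested members were lower and 4 higher. The activator PLAU gave -0.58 ± 0.11, and its receptor PLAUR, at -0.39 ± 0.35, did not pass. F13A1, the crosslinking factor that macrophages make, and F5 gave -2.11 ± 0.35 and -2.16 ± 0.14. The serpins SERPINB5 and SERPINB2, of keratinocytes, gave 8.03 ± 1.33 and 3.35 ± 0.64. For hyaluronan, HAS1 was higher (1.47 ± 0.40, adjusted p = 0.0526 and 0.0515 without wounds 2 and 6) and TNFAIP6, which crosslinks it, lower (-1.39 ± 0.35), while HAS2 did not pass (0.73 ± 0.39) and HAS3 was at 0 in all 12 samples.

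Few genes of cell division passed. Of 34 tested cell cycle genes 1 was lower at the edge, HMMR at -0.79 ± 0.17, and 0 were higher in edgeR's fit, with a median log2 difference of -0.32. At an unadjusted p below 0.05, 4 were lower and 1 was higher, and DESeq2 gave 3 and 1. MKI67 was at 46.9 to 83.6 CPM at the edge and 50.7 to 219 CPM in the center (-0.52 ± 0.23, adjusted p = 0.0991), and -0.68 (adjusted p = 0.0275) without wound 6. Without wound 6, 7 members were lower. TOP2A, CDK1 and CCNB1 gave -0.46 ± 0.20, -0.38 ± 0.25 and -0.37 ± 0.21. In oxidative phosphorylation 2 of 27 tested members were lower, SDHB at -0.43 ± 0.07 and SDHA at -0.30 ± 0.06, and 1 was higher, UQCRFS1 at 0.29. In hypoxia and glycolysis 8 of 25 were higher and 5 lower. SLC2A1, the glucose transporter GLUT1, was at 160 to 385 CPM at the edge and 42.7 to 299 CPM in the center, the 299 CPM in wound 1 (1.92 ± 0.40), and BNIP3, EGLN3 and VEGFA gave 2.19 ± 0.35, 2.68 ± 0.66 and 0.61 ± 0.11. LDHA and the lactate exporter SLC16A3 were lower, at -1.24 ± 0.23 and -1.94 ± 0.18.

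Immediate early genes gave 6 of 25 lower and 3 higher (5 higher without wound 6). FOS, FOSB and EGR1 varied widely, with FOS from 24.3 to 936 CPM in the center, and did not pass, while DUSP2 and ATF3 were lower without overlap, at -2.60 ± 0.48 and -2.16 ± 0.36. Of positional and dermal factors 9 of 37 were higher and 10 lower, close to the shares over all genes. TBX2, TBX3 and PRRX1, of wound and dermal fibroblasts, were lower without overlap, at -1.34 ± 0.16, -1.43 ± 0.21 and -0.44 ± 0.10. TBX4 and OSR1 were higher, at 2.27 ± 0.38 and 1.95 ± 0.43.

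Adipocyte genes were higher in 8 of 16 tested members and lower in 2, with a median log2 difference of 1.61, and varied by wound. ADIPOQ, adiponectin, was at 229 to 1440 CPM at the edge and 0.483 to 940 CPM in the center, higher at the edge in 6 of 6 wounds (2.74 ± 1.13, adjusted p = 0.0803, and 0.0381 without wound 1). PLIN1, the lipid droplet coat, gave 2.70 ± 0.83 (adjusted p = 0.0295, and 0.0862 and 0.0829 without wounds 2 and 3), and 5 members were higher without either. LEP, leptin, gave 3.19 ± 0.57 on levels under 8 CPM, and FABP4, which macrophages and vessels also make, did not pass (-0.13 ± 0.31). The lipase LPL was lower, at -1.60 ± 0.24. Skeletal muscle transcripts were scarce, with ACTA1, CKM and MYH7 at most 0.887 CPM on day 11, and 4 of 8 tested members were lower (2 or 3 with a wound left out), among them RYR1 at -1.35 ± 0.26. Of 3 erythrocyte genes 0 passed in edgeR's fit, 0 at an unadjusted p below 0.05 and 0 with DESeq2, with HBB at -0.62 ± 0.42. Without wound 5, HBB was called lower at the edge in edgeR's fit (-1.05, adjusted p = 0.00577). Bone and cartilage genes were higher in 7 of 12 and lower in 3, with ACAN, aggrecan, at 2.90 to 15.6 CPM and 0.138 to 0.711 CPM (3.84 ± 0.55) and RUNX2, of bone and wound fibroblasts, lower without overlap (-1.41 ± 0.17).

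The difference between edge and center was then compared between days, in 1 fit of days 7, 11 and 13. Day 7 samples came from the same 3 animals at other wound positions. Day 13 samples came from other animals at the same positions, so that day and animal cannot be told apart. Of 15457 genes tested, 3 (0.0194%) differed in their location effect between days 11 and 7 at an adjusted p below 0.05, and 1261 (8.16%) at an unadjusted p below 0.05. Between days 11 and 13 the counts were 0 (0.0%) in edgeR's fit and 950 (6.15%).

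SLC43A3, a nucleobase transporter, was at 14.9 to 31.6 CPM at the edge and 37.9 to 64.4 CPM in the center on day 11, while on day 7 it was at 30.2 to 42.2 and 31.3 to 47.1 CPM. Its log2 difference between edge and center was -1.15 on day 11 and -0.17 on day 7, and these differed by -0.98 ± 0.13 (adjusted p = 0.011, and 0.0586 without wound 5). ITGB8, an integrin chain that activates TGF-beta, went from 16.3 to 26.2 CPM at the edge on day 7 to 30.9 to 55.6 CPM on day 11, and its centers from 17.1 to 68.0 CPM to 9.27 to 24.1 CPM. The log2 differences were -0.57 and 1.36, and these differed by 1.93 ± 0.28 (adjusted p = 0.0184). A second gene model matched to ITGB8 gave 1.67 ± 0.31 (adjusted p = 0.113), and the first lost its call without wound 3, 5 or 6 (adjusted p from 0.0514 to 0.0842). NOS2, inducible nitric oxide synthase, was below the expression level set for naming genes and was chosen after its values were seen. It was at 1.73 to 3.87 CPM at the edge and 8.07 to 23.8 CPM in the center on day 11, and at 2.48 to 5.67 and 3.81 to 6.33 CPM on day 7. Its log2 differences were -2.45 and -0.39, and these differed by -2.06 ± 0.31 (adjusted p = 0.02). Without wound 2, 3, 5 or 6 the adjusted p was 0.0638 to 0.0763, and 0.28 without the wound as a block.

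Medians of the lists on the 3 days stood side by side as follows, with no test of a list between days. In the order of days 7, 11 and 13, the basal list had 5.82, 5.39 and 3.15, and the suprabasal list 7.83, 7.76 and 6.23. T and NK cell genes had -0.67, -1.53 and -1.90, with 10, 25 and 24 of 27 members lower at the edge. Macrophage genes had -0.77, -1.33 and -1.32, with 13, 17 and 21 of 23 lower. The lymphatic list had 1.31, 0.31 and -0.33, and the adipocyte list had 0.38, 1.59 and 0.24. Endothelial genes had -0.60, -0.75 and -0.63.

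**Figure D5:**
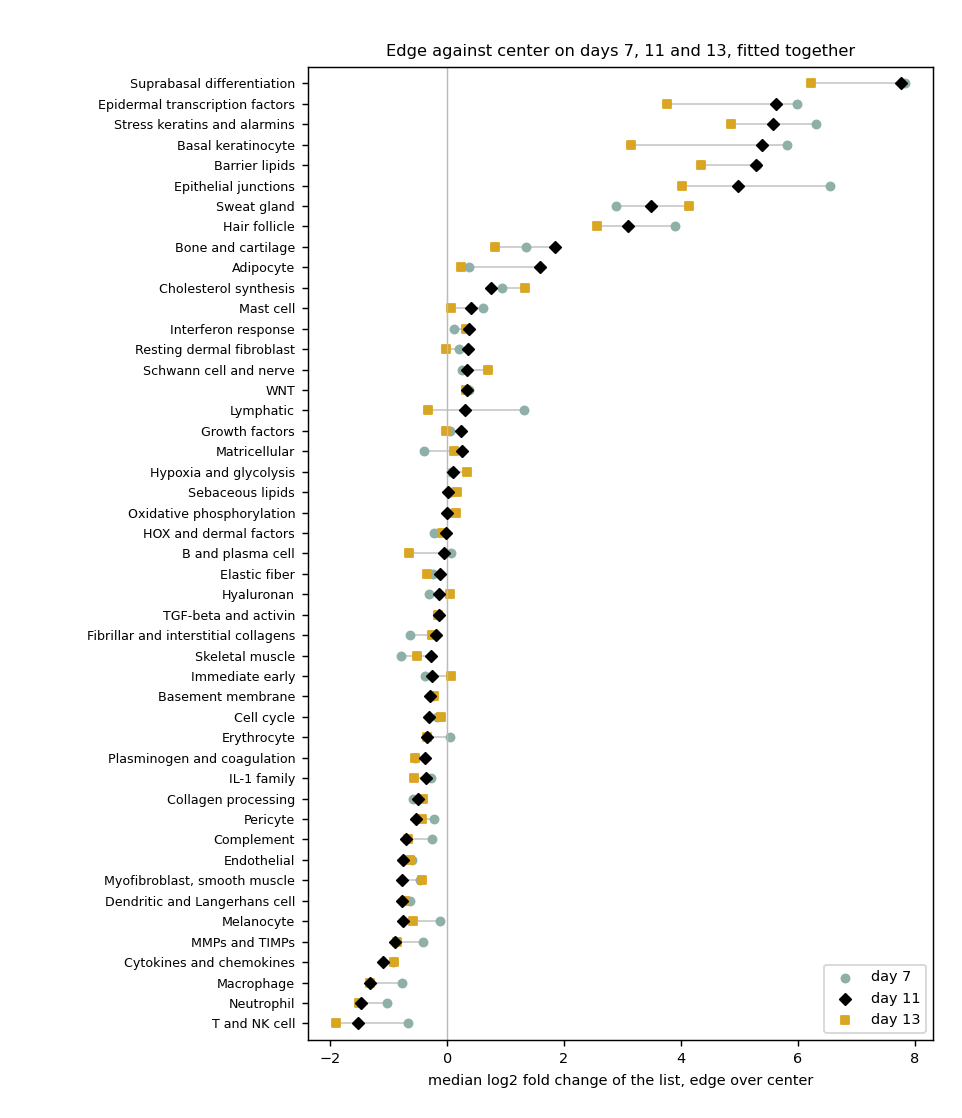
Median log2 fold change of edge over center of each list on days 7 (circles), 11 (diamonds) and 13 (squares), from 1 fit of 36 samples. The epidermal medians are above 3 on all 3 days, and the T and NK cell median runs from -0.67 on day 7 to -1.90 on day 13.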

How the data were processed

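The sequencing provider made poly-A libraries and counted reads per gene, and the authors deposited these counts without normalization. The aligner, counting tool, strand setting and genome build are not given in the sources used here. Deposited FPKM values were not used. Edge and center samples of day 11 were compared with edgeR 4.0.16 (R 4.3.3, limma 3.58.1): trimmed mean of M-values (TMM) scaling, filterByExpr (counts of at least 10 in enough samples, 15 in total), the quasi-likelihood test with the wound as a block, and Benjamini-Hochberg adjustment over all genes tested at 0.05. The standard error is the absolute log2 difference divided by the square root of F. Edge and center of a number came from 1 wound, and their deviations from the group means correlated at 0.115 to 0.586, though the edges of wounds 1 and 5 correlated best with each other's center. Days were compared by the interaction of location and day over days 7, 11 and 13. On simulated counts (14285 genes tested, 200 genes changed) the day 11 fit found 53.9% of 2-fold and 91.7% of 4-fold changes, with 4.67% false calls. For the interaction of days 11 and 7 these rates were 49.5%, 78.2% and 0.781%. The simulated counts held no animal effect, no library that stood apart and far fewer changed genes than the 7020 called. The rates need not hold for the data. DESeq2 1.42.0, no block, no TMM, no filter, wounds of an animal summed and each wound left out were the alternatives. Tables and plots were made in Python 3.11.15 (matplotlib 3.10.9, pandas 2.3.3, numpy 2.4.6).

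Of 30461 genes, 21687 had a symbol, from the table's name column or its protein match, and 8774 had none. Where both names were given and differed, the protein match was used for 515 genes and the table's name for 68. Where several genes shared a symbol (54 list symbols), the gene with the highest mean count was taken. This was set after the table had been seen, on level and not on difference. Genes with near-identical copies or several gene models are uncertain. Named genes were the 10 highest and 10 lowest log2 differences (symbol, called, same direction in all 6 wounds, mean log2 CPM of at least 4), the defining members and the 2 called members of largest difference per list, and up to 5 per direction between days. Other members were named as examples after their values were seen. Members and lists were chosen with earlier results of these data known. Total counts set the precision of low levels, which covers counting error only. Some list members are not reported here.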

Additional observations from a re-analysis of the deposited data

Results flagged for a closer look

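In 14 of 98 groups of 6 values examined, 1 sample lay far from the others by Dixon's ratio at the 95% level. Independent and normally spread groups would give about 4.9 by chance. The groups here share the same 12 samples and related lists, so 14 cannot be tested against that number. Of the samples that lay apart, 10 were the center of wound 1. Its mean r with the other centers was 0.853, against 0.954 to 0.959. Its summed level was 27400 CPM for basal genes (249 to 529 in the other centers), 9790 for suprabasal genes (128 to 441), 29500 for stress keratins and alarmins (126 to 384), and 9740 for epithelial junctions (203 to 303). It was 1080 CPM for epidermal transcription factors (111 to 303), 1270 for barrier lipids (401 to 457), 2210 for cholesterol synthesis (751 to 1170), 271 for sweat gland genes (43.0 to 64.0) and 61.4 for hair follicle genes (20.1 to 32.6).

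The edge of wound 3 stood apart for hair follicle genes, at 1000 CPM against 65.4 to 97.0 CPM at the other edges, and for cytokines and chemokines, at 1570 CPM against 650 to 925 CPM. The center of wound 3 stood apart for T and NK cell genes, at 1100 CPM against 252 to 457 CPM. The center of wound 6 had 7170 CPM of immediate early genes, and the other centers 2260 to 3520 CPM.

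The log2 difference between edge and center differed between days 11 and 7 for 3 genes in the test of the interaction: by -0.98 for SLC43A3, 1.93 for ITGB8 and -2.06 for NOS2.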

How the results depend on the processing

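The count of genes that differed between edge and center, 7020, was 6272 without the replicate block, 7215 without TMM factors, 6754 without a filter, 7653 with DESeq2, 4984 with the wounds of an animal summed, and 5675 to 7125 with a wound left out. Of calls, 49.2% were higher at the edge, 41.2% without TMM factors, 53.2% without a filter, 54.0% with DESeq2, 48.9% with animals summed and 49.8% to 54.4% with a wound left out. Leaving out TMM factors moved the median of all genes from -0.03 to -0.11. Of 185 named genes called, 126 were called under all 11 alternatives and 164 with each wound left out. Without the replicate block 45 named values lost their call and 1 gained one, and with the wounds of an animal summed 41 lost it and 2 gained one. These included many of the epidermal genes. Higher members also went from 10 to 3 in the resting fibroblast list, from 8 to 2 in the adipocyte list and from 5 to 1 in the complement list without the block, and from 10 to 6, 8 to 3 and 5 to 2 with animals summed. Lower T and NK cell genes went from 25 to 16 without the block and to 26 with animals summed, and lower interferon genes from 5 to 1 and 4. With animals summed, higher members went from 14 to 7 for cholesterol synthesis and from 15 to 9 for WNT. Between days 11 and 7, 3 genes differed in the fit as reported, 0 without the replicate block, 55 with DESeq2 and 0 to 5 with a wound left out. Between days 11 and 13 the count was 0, 1 without the replicate block, 3 with DESeq2 and 0 with a wound left out. The cause was not tested.

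Values that changed sign did not pass the test in any of these fits. Without the replicate block these were COL1A1 (-0.02), COL1A2 (-0.01), IL1RN (-0.38), SP7 (-0.15) and CEMIP (-0.12). Without TMM factors they were COL1A1 (-0.04), COL1A2 (-0.04), IL1RN (-0.04), SP7 (-0.05) and CEMIP (-0.03). With animals summed they were IL1RN (-0.22), SP7 (-0.01) and CEMIP (-0.02). With a wound left out they were COL1A1 and COL1A2 (both -0.06 to 0.19), TNC (-0.31 to 0.04), SPARC (-0.14 to 0.03), FBLN5 (-0.17 to 0.08), COL7A1 (-0.05 to 0.27), IL1RN (-0.42 to 0.34), FOS (-1.05 to 0.01), JUNB (-0.34 to 0.05), SP7 (-0.17 to 0.35), CEMIP (-0.17 to 0.34) and FABP4 (-0.32 to 0.16). With 3 animals and 2 wounds in each, the spread between animals is poorly known, and genes near 0 in the center have log2 differences that depend on the prior count.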

Other observations

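Some gene families, chosen after their values were seen, lay mostly on 1 side of the comparison. They overlap the lists in part: KLK5, KLK7 and KLK8 are also suprabasal members, and CTSS is a macrophage member. Over all genes the shares were 23.9% higher and 24.7% lower at the edge. Kallikreins, proteases that shed the cornified layer, were higher at the edge in 10 of 11 tested genes, with a median log2 difference of 6.61, and FAM83 genes in 6 of 7, with 4.99. Of Eph receptors and ephrins, which sort cells at borders, 11 of 19 were higher and 1 lower, with EFNA3 at 4.68. Cathepsins, lysosomal proteases, were lower in 9 of 12 tested gene models and higher in 1, with CTSB at -1.63 ± 0.19. Gene models matched to CTSL gave both the lowest and the highest value, -2.98 and 0.77. Of ADAM and ADAMTS proteases 23 of 40 were lower and 4 higher, with ADAM8 at -2.13. Toll-like receptors were lower in 7 of 11 and higher in 1, with TLR2 at -1.66.

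Among single genes outside the lists, the iron storage chains FTH1 and FTL were lower at the edge. FTH1 was at 1200 to 2980 CPM at the edge and 3410 to 6950 CPM in the center, a log2 difference of -1.57 ± 0.16, and FTL at 810 to 1630 and 2460 to 5210 CPM gave -1.82 ± 0.14. HMOX1, which frees iron from heme, was at 82.5 to 133 CPM and 277 to 437 CPM (-1.74 ± 0.12). None of these 3 genes had overlapping groups. SRGN, the proteoglycan of leukocyte granules, was at 47.2 to 175 CPM and 342 to 1100 CPM (-2.98 ± 0.22), and CLU, clusterin, at 47.6 to 209 CPM and 532 to 962 CPM (-2.58 ± 0.25).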
